A study of Mus musculus with 5 samples.

Results

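The cholesterol and fatty acid synthesis genes described here are 28 listed genes among the 55487 genes counted in HT22, a hippocampal neuronal cell line of the mouse. The rule takes genes by their function and uses no measured value, and the genes were found by matching Ensembl identifiers to GRCm38 gene symbols. It was split into 7 genes for mevalonate and isoprenoid steps, 11 for squalene and sterol steps, 3 for sterol control and transport, and 7 for the fatty acid branch. All 28 had at least 10 counts in every library and passed the filter on low counts. The study asked which RNAs change when GAS5, a long non-coding RNA, is knocked down (KD). Cells were transfected for 48 h with 10 nM of siRNA. The GAS5 siRNA was siRNA210 in 1 library and siRNA596 in 2, and a further 2 libraries had negative-control (NC) siRNA, with the same transfection reagent in each group and no other treatment named. The NC samples carry the label untreated, whereas their titles give NC and the study's protocol gives NC siRNA. All libraries are of a single cell line, and the labels do not say that replicates came from separate cultures, so *P*-values measure only the spread between these samples.

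Cholesterol is built from acetyl-CoA, which is joined into mevalonate, turned into isoprenoid units, condensed to squalene, closed into lanosterol and trimmed to cholesterol. Fatty acid synthesis starts from the same acetyl-CoA, which acetyl-CoA carboxylase turns into malonyl-CoA for fatty acid synthase, after which elongases and desaturases shape the chains. Genes of both routes are targets of the SREBP transcription factors, which are held in the endoplasmic reticulum by INSIG proteins when sterols are plentiful and travel to the nucleus when sterols run low. SREBPs bind sterol regulatory elements and act together with NF-Y, which binds CCAAT, and Sp1, which binds GC boxes. In the brain cholesterol is made locally, since lipoproteins of the blood do not cross the blood-brain barrier.

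The promoters of Hmgcs1, Lss, Insig1 and Fasn are shown because these genes stand for the mevalonate steps, the sterol steps, sterol control and the fatty acid branch in the results on libraries. The bases upstream of the annotated start are from RefSeq on GRCm38.p6, and capitals mark CCAAT on either strand or TCACNCCAC, the sterol regulatory element searched for.
Hmgcs1, ENSMUSG00000093930, chr13:119690101-119690350, plus strand: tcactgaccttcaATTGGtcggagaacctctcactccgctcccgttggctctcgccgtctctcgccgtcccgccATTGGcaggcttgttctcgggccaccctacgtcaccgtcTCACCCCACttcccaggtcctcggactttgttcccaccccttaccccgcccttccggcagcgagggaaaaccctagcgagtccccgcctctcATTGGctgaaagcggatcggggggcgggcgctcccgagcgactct
Lss, ENSMUSG00000033105, chr10:76531355-76531587, plus strand: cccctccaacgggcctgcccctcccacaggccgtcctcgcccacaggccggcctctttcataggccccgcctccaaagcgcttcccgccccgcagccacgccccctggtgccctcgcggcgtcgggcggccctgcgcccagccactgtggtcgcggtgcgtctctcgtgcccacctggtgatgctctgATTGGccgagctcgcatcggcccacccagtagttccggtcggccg
Insig1, ENSMUSG00000045294, chr5:28071162-28071362, plus strand: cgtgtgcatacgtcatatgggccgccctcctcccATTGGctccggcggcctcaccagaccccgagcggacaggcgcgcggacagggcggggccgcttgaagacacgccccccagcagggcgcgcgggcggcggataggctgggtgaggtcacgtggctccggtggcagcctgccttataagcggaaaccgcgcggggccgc
Fasn, ENSMUSG00000025153, chr11:120824548-120824797, minus strand: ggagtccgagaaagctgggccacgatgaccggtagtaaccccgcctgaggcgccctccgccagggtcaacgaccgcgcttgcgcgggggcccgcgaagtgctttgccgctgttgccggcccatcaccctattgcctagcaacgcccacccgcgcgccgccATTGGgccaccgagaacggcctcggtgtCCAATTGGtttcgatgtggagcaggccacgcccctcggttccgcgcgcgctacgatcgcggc

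Of the 28 genes, 22 matched an entry of the RefSeq promoter table, and Scd1, Scd2, Fdps, Sqle, Stard4 and Fdft1 did not. In the 250 bases upstream of the start site, read on both strands, CCAAT stood in 18 of the 22 (81.8%) against 37.5% of 27025 genes with a promoter. GGGCGG, the core of the GC box, was also found in 18 of the 22, against 35.4% of genes. CACGTG, the E-box, was found in 4 of the 22 (18.2%) against 6.86% of genes. TCACNCCAC was found in Hmgcs1 only, 137 bases upstream, against 1.22% of genes. The CCAAT matches lay 237, 176 and 45 bases upstream in Hmgcs1, 62 in Lss, 216 in Insig1, and 90, 62 and 59 in Fasn, where the last 2 overlap on opposite strands. These distances are counted from the RefSeq start site, and the stretches printed for Lss and Insig1 stop before it, at the GENCODE start of the gene. These matches are a description of letters and not of binding, and they were not set against promoters of like base composition.

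The library totals ran from 30660265 to 36492134 counts. Gas5 was at 90.3 and 76.0 CPM (TMM-normalized counts, scaled to a common library size) in NC replicates 1 and 2, at 59.6 with siRNA210, at 65.8 in siRNA596 replicate 1 and at 179 in the library labelled siRNA596 replicate 2, which goes against its label. The mean counts in the authors' deposited comparison match those of the other 4 libraries, so KD was compared with NC in those 4, and the values with all 5 are given beside. Of 7 neuron markers only Map2 and Tubb3 exceeded 1 CPM in every library, while Nefl, Snap25 and Dcx had no counts. The mesenchymal markers Col1a1, Col1a2, Col3a1 and Vim exceeded it in every library, with a summed level of 7710 to 8620 CPM. The 5 adipocyte and hepatocyte markers summed to 0.208 to 0.653 CPM, the microglia and oligodendrocyte markers to at most 3.24 CPM, and of 4 astrocyte markers Slc1a3 alone exceeded 1 CPM in every library. The cells thus carried few of the defining RNAs of neurons, and next to none of the cell types best known for lipid synthesis.

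Levels between genes were compared as TPM, the transcript share that takes exon length into account, as the mean ± SD over the 4 libraries. Scd2, a stearoyl-CoA desaturase that is the main form of the brain, was the most abundant of the 28 at 1746 ± 94.1 TPM. The next were Acly, ATP citrate lyase, at 361 TPM, and Srebf2, the SREBP of sterol genes, at 255 TPM, while the median of the 28 was 99.9 TPM. Fasn, fatty acid synthase, and Sqle, squalene epoxidase, were both at 249 TPM, and Insig1, which holds SREBPs back, was at 244 TPM. Scd1, the other desaturase, was at 190 TPM, so Scd2 had the higher level of the pair, and both lie on chromosome 19 (GRCm38), Scd2 at 44293674-44306864 on the plus strand and Scd1 at 44394455-44407879 on the minus strand. The lowest were Fdps, farnesyl diphosphate synthase, at 7.93 ± 2.24 TPM, and Tm7sf2, a sterol C14 reductase, at 10.3 TPM. The low level of Fdps is uncertain because 26.2% of its 50-base windows also occur in other genes, chiefly the predicted gene Gm43738. How the counting treated reads from such windows is not given in the sources used here. The same holds for Acat2 (39.1%, shared with Acat3), Acaca (30.4%, chiefly with Gm5182), Idi1 (17.7%, chiefly with Gm13502), Tm7sf2 (9.87%, with Vps51) and Fdft1 (9.38%, with Gm6781), whereas each of the other 22 shared at most 4.56%. Srebf1, Acly, Acaca and Fasn all lie on chromosome 11, and Nsdhl and Ebp on X.

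**Figure D1:**
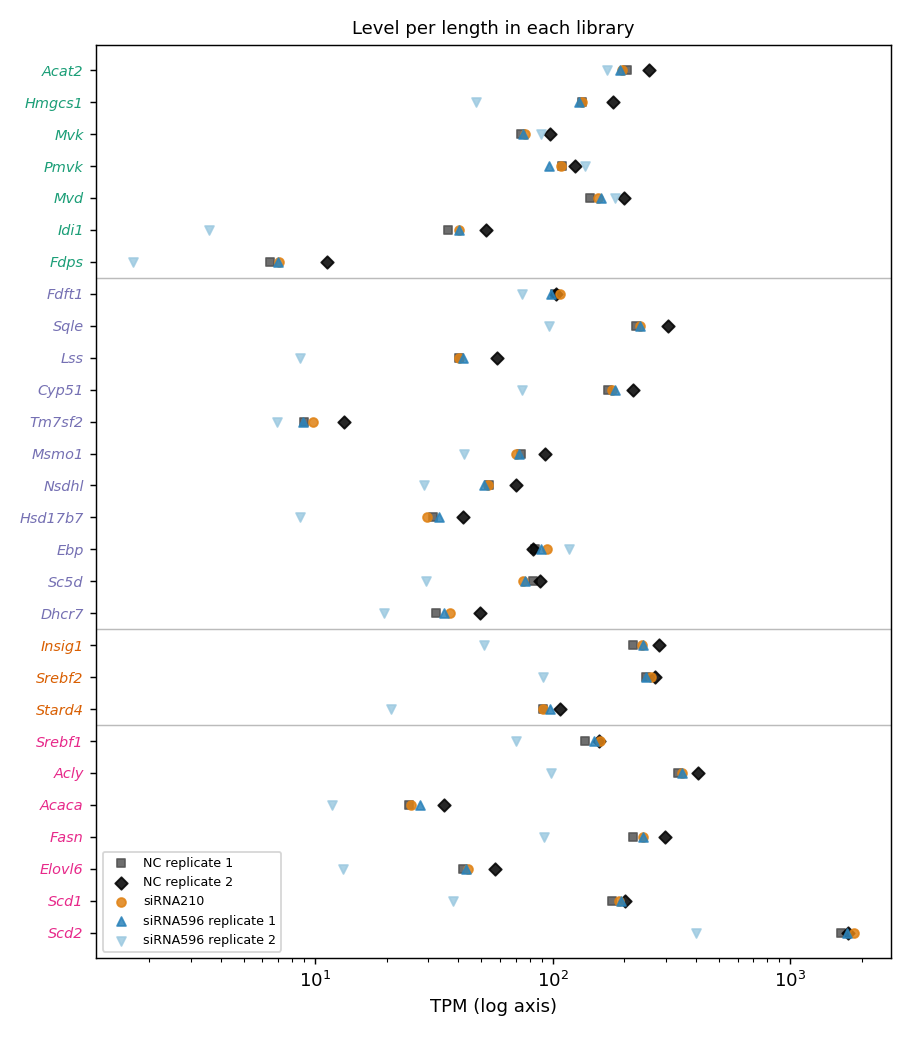
Level of each of the 28 genes in the 5 libraries, in TPM on a log axis, with the genes grouped by the 4 steps of the pathway and 1 point per library. Scd2 is highest at 1633 to 1862 TPM in the 4 libraries compared, and the points of siRNA596 replicate 2 lie apart from the others for many genes, such as Scd2 at 399.8 and Idi1 at 3.59 TPM.

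KD and NC were then compared with edgeR's quasi-likelihood test. None of the 28 passed an adjusted *P* of 0.05, an unadjusted *P* of 0.05, or the study's criteria of an unadjusted *P* under 0.05 and an absolute log2 fold change above 1, and DESeq2 as the test also gave 0 of 28 by each. Gas5, the target of the siRNAs, had a log2 fold change of -0.41 in edgeR's fit of 4 libraries (SE 0.11, unadjusted *P* = 0.00378). Its adjusted *P* was 0.967, so Gas5 too passed neither the adjusted *P* nor the study's criteria. Over the 15867 genes tested with 4 libraries, edgeR called 0% at the adjusted *P*, 3.3% at the unadjusted *P* and 0.876% by the study's criteria. Over the 16142 genes tested with 5 libraries the shares were 0%, 0.372% and 0.353%, and again 0 of 28 passed any of them. The log2 fold changes of the 28 in the 4 libraries ran from -0.31 (Fdps) to 0.17 (Ebp), with standard errors of 0.078 to 0.24. The 95% intervals reached from -0.85 (Fdps) to 0.38 (Ebp), so that a change of 2-fold lay outside the interval of every one of the 28 in this fit. The smallest unadjusted *P* was 0.0665 (Acat2) and the adjusted *P* was at least 0.967 throughout. With 5 libraries the log2 fold changes ran from -0.63 (Fdps) to 0.61 (Ebp), with unadjusted *P* of 0.17 to 0.939, and the intervals widened to between -2.46 (Idi1) and 1.57 (Ebp), so that a 2-fold change lay inside them for many of the 28, Idi1 and Ebp among them. In the fit of 4 libraries the estimates were below 0 for 22 of the 28 and above 0 for 6, with a median of -0.13 against -0.0023 over all genes tested, and in that of 5 libraries they were below 0 for 23 and above 0 for 5, with a median of -0.26 against 0.0112. Since these are bulk samples, fewer cells that use a gene and less RNA per cell cannot be told apart.

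The 7 mevalonate and isoprenoid genes all had estimates below 0, with a median log2 fold change of -0.15, and none passed the test. Hmgcs1, the cytosolic HMG-CoA synthase, was at 169 and 221 CPM in NC replicates 1 and 2, at 172 with siRNA210, and at 162 and 97.9 in siRNA596 replicates 1 and 2. NC replicate 2 was thus the highest, and NC replicate 1 lay between the 2 KD libraries compared. The log2 fold change was -0.22 (SE 0.12, unadjusted *P* = 0.0987). Acat2, the cytosolic thiolase that makes acetoacetyl-CoA, was at 144.5 and 173 CPM in NC, 141 with siRNA210, and 135 and 194 in siRNA596. Both KD libraries compared were below both NC libraries, by little in the case of NC replicate 1, while siRNA596 replicate 2 was the highest of all. Its log2 fold change was -0.21 (SE 0.099, unadjusted *P* = 0.0665), and part of its sequence is shared with Acat3. Fdps, which makes farnesyl diphosphate, was at 7.5 and 12.7 CPM in NC, 8.35 with siRNA210, and 8.02 and 3.22 in siRNA596, a log2 fold change of -0.31 (SE 0.24, unadjusted *P* = 0.23). The groups overlapped, and the NC libraries themselves differed by 1.695-fold. The kinases Mvk and Pmvk, the decarboxylase Mvd and the isomerase Idi1 ranged from 34.9 to 99.4 CPM over the 4 libraries, again with NC replicate 2 as the highest.

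Of the 11 squalene and sterol genes, 9 had estimates below 0 and 2 above, with a median log2 fold change of -0.15, and none passed the test. Sqle, which adds the oxygen from which the sterol rings close, was at 341 and 454 CPM in NC, 364 with siRNA210, and 356 and 239.6 in siRNA596. The KD libraries compared lay between the NC libraries, and the log2 fold change was -0.15 (SE 0.12, unadjusted *P* = 0.265). Lss, lanosterol synthase, was at 120.0 and 168 CPM in NC, 123 with siRNA210, and 124 and 42.0 in siRNA596, a log2 fold change of -0.22 (SE 0.14, unadjusted *P* = 0.137). Here too NC replicate 1 and both KD libraries compared were close together and NC replicate 2 was above them. Tm7sf2 was at 10.9 and 15.7 CPM in NC, 12.2 with siRNA210, and 10.8 and 13.6 in siRNA596, a log2 fold change of -0.21 (SE 0.19, unadjusted *P* = 0.3). Nsdhl, a dehydrogenase that helps remove the C4 methyl groups, was at 42.5 and 53.5 CPM in NC, 43.0 with siRNA210, and 40.3 and 36.8 in siRNA596, a log2 fold change of -0.21 (SE 0.12, unadjusted *P* = 0.13). In both genes the groups overlapped. The demethylase Cyp51, the C4 oxidase Msmo1, the reductases Hsd17b7 and Dhcr7 and the desaturase Sc5d also had estimates below 0. Fdft1, squalene synthase, and Ebp, the sterol isomerase, had estimates above 0. Ebp was the member with the highest estimate, at 53.5 and 51.4 CPM in NC, 61.8 with siRNA210, and 56.5 and 122 in siRNA596, a log2 fold change of 0.17 (SE 0.094, unadjusted *P* = 0.101).

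The 3 genes of sterol control and transport had log2 fold changes near 0 in the 4 libraries. Insig1 was at 185 and 232 CPM in NC, 208 with siRNA210, and 204.5 and 71.4 in siRNA596, a log2 fold change of -0.017 (SE 0.11, unadjusted *P* = 0.879). Srebf2 was at 487.5 and 518 CPM in NC, 526 with siRNA210, and 487 and 292 in siRNA596, a log2 fold change of 0.0094 (SE 0.083, unadjusted *P* = 0.911). Stard4, a carrier of cholesterol between membranes, was at 140.1 and 161 CPM in NC, 143 with siRNA210, and 149.6 and 52.5 in siRNA596, a log2 fold change of -0.041 (SE 0.091, unadjusted *P* = 0.661). In each of the 3 the KD libraries compared overlapped NC, and siRNA596 replicate 2 was far below all other libraries.

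In the fatty acid branch 4 of 7 genes had estimates below 0 and 3 above, with a median log2 fold change of -0.057, and none passed the test. Srebf1, which encodes the SREBP of fatty acid genes, was at 212 and 235 CPM in NC, 251.5 with siRNA210, and 230.3 and 177 in siRNA596, a log2 fold change of 0.1 (SE 0.089, unadjusted *P* = 0.27). Fasn was at 659.6 and 873 CPM in NC, 745 with siRNA210, and 722 and 449.8 in siRNA596, a log2 fold change of -0.066 (SE 0.12, unadjusted *P* = 0.602). In both genes the groups overlapped. Acaca, acetyl-CoA carboxylase, was at 117 and 159 CPM in NC, 122 with siRNA210, and 129.5 and 89.97 in siRNA596, a log2 fold change of -0.13 (SE 0.13, unadjusted *P* = 0.331). Elovl6, which lengthens palmitate, was at 74.3 and 98.9 CPM in NC, 79.9 with siRNA210, and 76.4 and 37.7 in siRNA596, a log2 fold change of -0.15 (SE 0.13, unadjusted *P* = 0.263). For both, the KD libraries compared lay between NC replicate 1 and NC replicate 2. Scd1 was at 239 and 264 CPM in NC, 262 with siRNA210, and 259 and 83.4 in siRNA596, a log2 fold change of 0.049 (SE 0.084, unadjusted *P* = 0.575). Scd2 was at 2461 and 2574 CPM in NC, 2874 with siRNA210, and 2595 and 979.9 in siRNA596, a log2 fold change of 0.12 (SE 0.082, unadjusted *P* = 0.186). The 2 desaturases thus differed in overlap, since both KD libraries compared were above NC for Scd2, by little in siRNA596 replicate 1, and between the NC libraries for Scd1. Acly was at 490.2 and 578 CPM in NC, at 522 with siRNA210, and at 506 and 233 in siRNA596.

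Both KD libraries compared lay on one side of both NC libraries for 5 of the 28 genes, lower for Acat2, Msmo1 and Sc5d and higher for Ebp and Scd2. That is 5 of 28 against 32.8% of all genes tested, and the other 23 overlapped.

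The larger contrast among the 4 libraries lay between the NC libraries. In CPM, NC replicate 2 was the highest of the 4 for 23 of the 28 genes, against 32.6% of all genes tested, and the exceptions were Fdft1, Ebp, Srebf2, Srebf1 and Scd2. The 28 had a median of 0.31 for the log2 level in NC replicate 2 minus the mean of the other 3, against -0.0018 over all genes. The fold of NC replicate 2 over NC replicate 1 ran from 0.96 (Ebp) to 1.695 (Fdps), with a median of 1.253. By branch, NC replicate 2 was highest for 7 of 7 mevalonate and isoprenoid genes, 9 of 11 squalene and sterol genes, 2 of 3 control and transport genes and 5 of 7 fatty acid genes. The median log2 difference from the other 3 libraries was 0.33, 0.35, 0.16 and 0.19 for these branches in the same order. Summed over the genes, the squalene and sterol branch was at 1228 and 1518 CPM in NC replicates 1 and 2, against 1281 with siRNA210 and 1249 in siRNA596 replicate 1. The mevalonate and isoprenoid branch was also highest in NC replicate 2, at 535 and 682 CPM in NC, 554 with siRNA210 and 526 in siRNA596 replicate 1. The fatty acid branch, of which Scd2 makes up the larger share, was highest with siRNA210, at 4253 and 4783 CPM in NC, 4856 with siRNA210 and 4518 in siRNA596 replicate 1, although in summed TPM it too was highest in NC replicate 2, at 2913 against 2870 with siRNA210. The ratio of NC replicate 2 to NC replicate 1 in summed CPM-scaled counts was 1.207 (95% counting interval 1.197 to 1.218) for the 21 sterol-side genes and 1.125 (1.117 to 1.132) for the fatty acid branch. These intervals cover counting error only, and since a single pair of libraries is compared, they describe the 2 libraries and no condition. NC replicate 2 was also the deepest library. The part of depth in this difference was not tested.

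**Figure D2:**
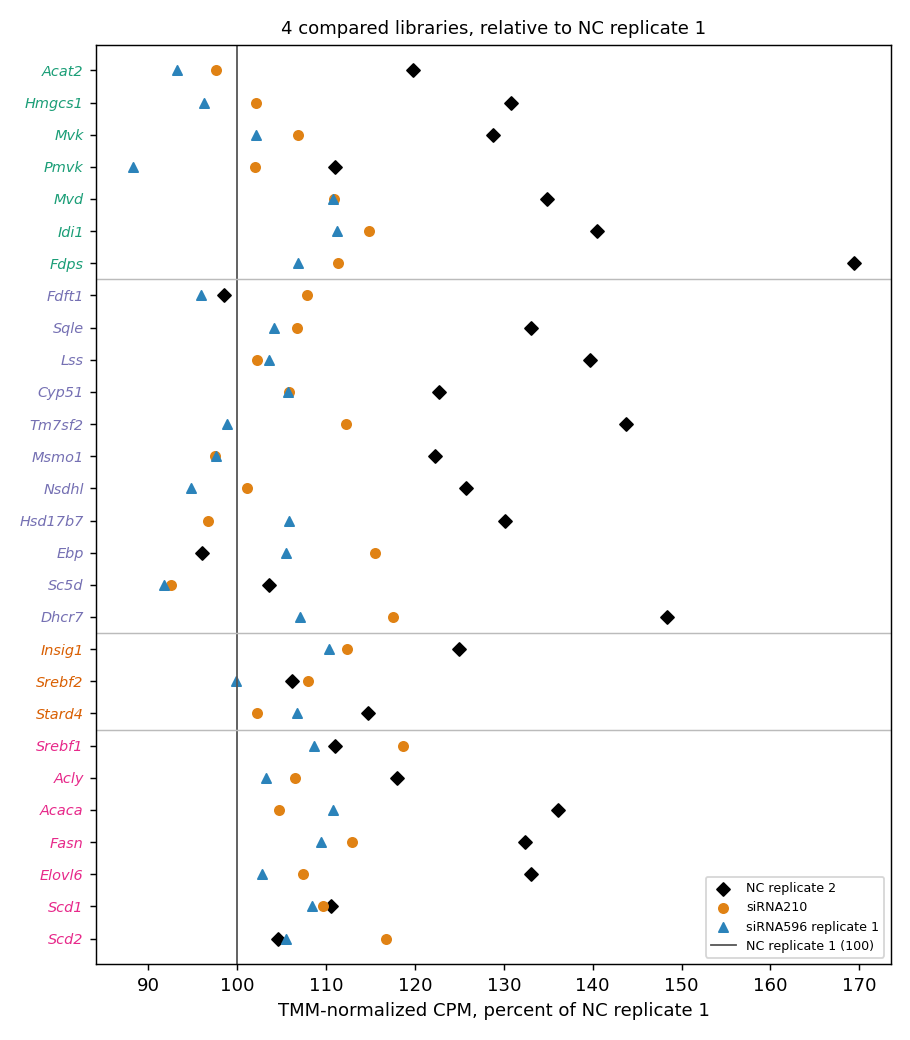
Level of each of the 28 genes in NC replicate 2, siRNA210 and siRNA596 replicate 1 as a percentage of its TMM-normalized CPM in NC replicate 1 (vertical line at 100%), grouped by pathway step. The KD points lie near the line, and the NC replicate 2 points lie to their right for 23 of the 28 genes, with Fdps the farthest at 169.5%.

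The 2 KD libraries compared were close to NC replicate 1. Both lay within 15% of NC replicate 1 for 24 of the 28 genes, and this share was not taken over all genes. The other 4 (Ebp, Dhcr7, Srebf1 and Scd2) exceeded 15% in siRNA210, at 115.5% to 119% of NC replicate 1. The KD estimates therefore turned on which NC library was used. Without NC replicate 2, the median log2 fold change of the 28 was 0.075, with 22 above 0 and 6 below, and Fasn alone passed an unadjusted *P* of 0.05 (higher in KD), where 1.4% of all genes tested passed as higher. Without NC replicate 1, the median was -0.29 and 20 of the 28 were lower in KD at an unadjusted *P* of 0.05, against 7.06% of all genes as lower. The smallest unadjusted *P* was then 0.0018 (Lss), the smallest adjusted *P* 0.207, and 0 of 28 passed an adjusted *P* of 0.05 by edgeR. In each of these fits NC holds 1 library, which is assumed to vary like the KD libraries.

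**Figure D3:**
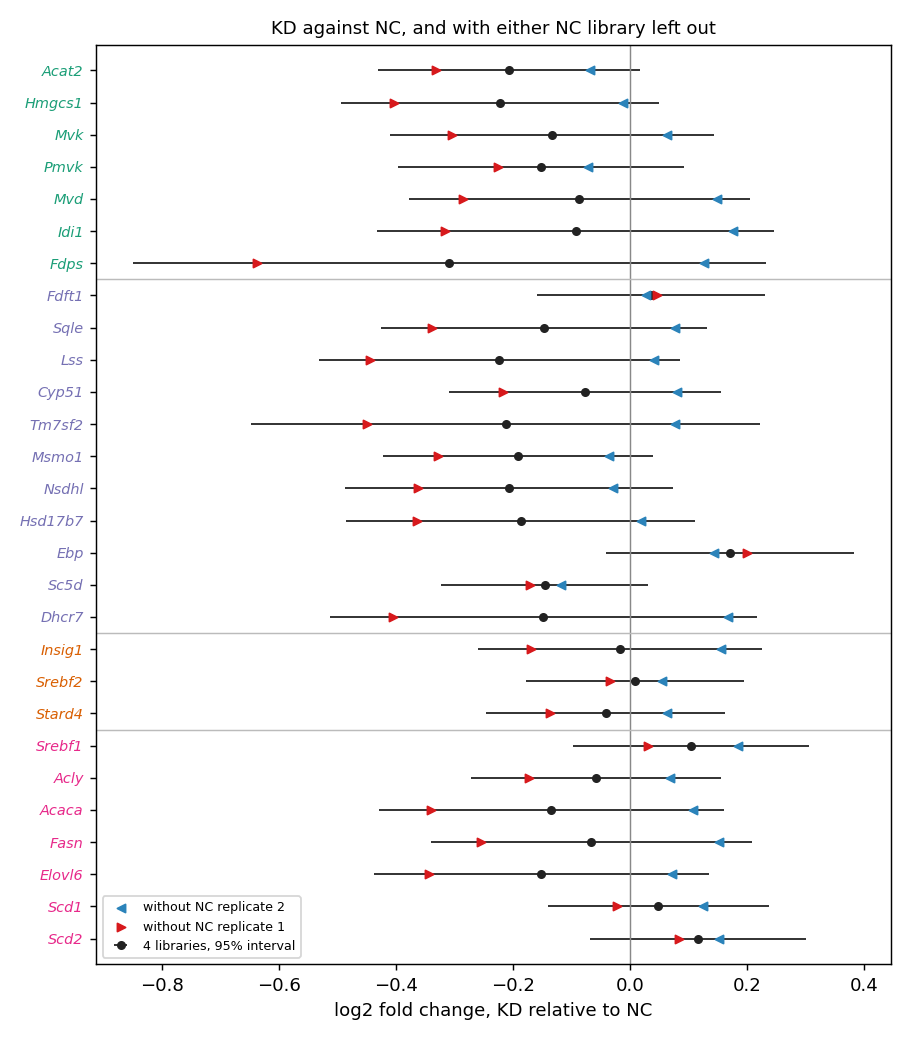
Log2 fold change of KD against NC for each of the 28 genes (x axis), from edgeR's fit of 4 libraries (dots, with 95% intervals as lines) and from the fits without NC replicate 1 or without NC replicate 2 (triangles). All 28 intervals include 0 and stay within -0.85 and 0.38, and for most genes the triangle without NC replicate 1 lies below 0 and that without NC replicate 2 near or above it.

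The library labelled siRNA596 replicate 2 stood farther from the rest. Its log2 level minus the mean of the other 4 ran from -2.74 (Idi1) to 1.12 (Ebp), where that of NC replicate 2 minus the other 3 ran from -0.15 (Ebp) to 0.645 (Fdps). It was the lowest of the 5 for 21 of the 28 genes and the highest for 6, and these shares were not taken over all genes. Relative to the mean log2 level of the other 4, 21 of the 28 were below and 7 above. Over the 15867 genes tested, 8421 were below and 7446 above. Against the mean log2 level of the other 4, 10 of the 28 were below 50% there, where 15.1% of all genes tested were, and 2 were above 200%, where 13.5% were. Idi1, isopentenyl diphosphate isomerase, was the lowest, at 5.64 CPM (149 counts) against 34.9 to 49.1 CPM in the other 4, which is 15% of their mean. Lss was at 32% of that mean, Scd1 at 32.7%, Insig1 at 34.7%, Stard4 at 35.6% and Scd2 at 37.4%, followed by Fdps, Hsd17b7, Acly and Elovl6. Ebp was at 218% and Pmvk, phosphomevalonate kinase, at 204%, and Mvd and Mvk were also raised, with log2 differences of 0.87 and 0.86. These directions are on the CPM scale with TMM, and on the TPM scale Mvk, Pmvk, Mvd and Ebp were still above the mean of the other 4 while Acat2, Fdft1 and Tm7sf2 were below it. On both scales the mevalonate branch was split within itself, with Mvk, Pmvk and Mvd higher in this library and Hmgcs1, Idi1 and Fdps lower, while all 7 fatty acid genes and all 3 control and transport genes were lower. In summed level the fatty acid branch was at 48.2% of NC replicate 1 there, control and transport at 51.2%, the squalene and sterol branch at 80.7% and the mevalonate branch at 125% on the CPM scale, whereas on the TPM scale the mevalonate branch was at 89.4%, the squalene and sterol branch at 55.9%, control and transport at 29.4% and the fatty acid branch at 28.1%.

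In this library the level also moved with transcript length, taken as the longest annotated transcript. Of the 6 genes with transcripts of at most 2500 bases, 5 were higher there and Nsdhl was lower, with a median log2 difference of 0.86. Of the 22 longer ones, 20 were lower and 2 higher, with a median of -0.83. Across the 28 genes the correlation of the log2 difference with log2 length was -0.572 (Pearson) and -0.589 (Spearman), and across 16119 genes it was -0.42 and -0.484. These correlations are across genes measured in the same library, and genes are not independent replicates. In the other 4 libraries the same Spearman correlation across all genes ran from -0.0646 to 0.0328. Across the 28 it ran from -0.136 to 0.343, the latter in siRNA596 replicate 1, where Pearson's value was 0.382. After the part fitted by length and GC content over all genes was removed, the median of the 28 moved from -0.69 to -0.31. Idi1 was then at -2.56, Insig1 at -1.57 and Fdps at -1.42, close to their values before. Scd1 moved from -1.61 to -1.06, Elovl6 from -1.11 to -0.29, Fasn from -0.73 to 0.07 and Acaca from -0.54 to 0.52. Ebp moved from 1.12 to 0.78 and Pmvk from 1.03 to 0.39. As Gas5 was at 215% of the NC mean in this library, its values are given for what they are and not as an effect of siRNA596.

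**Figure D4:**
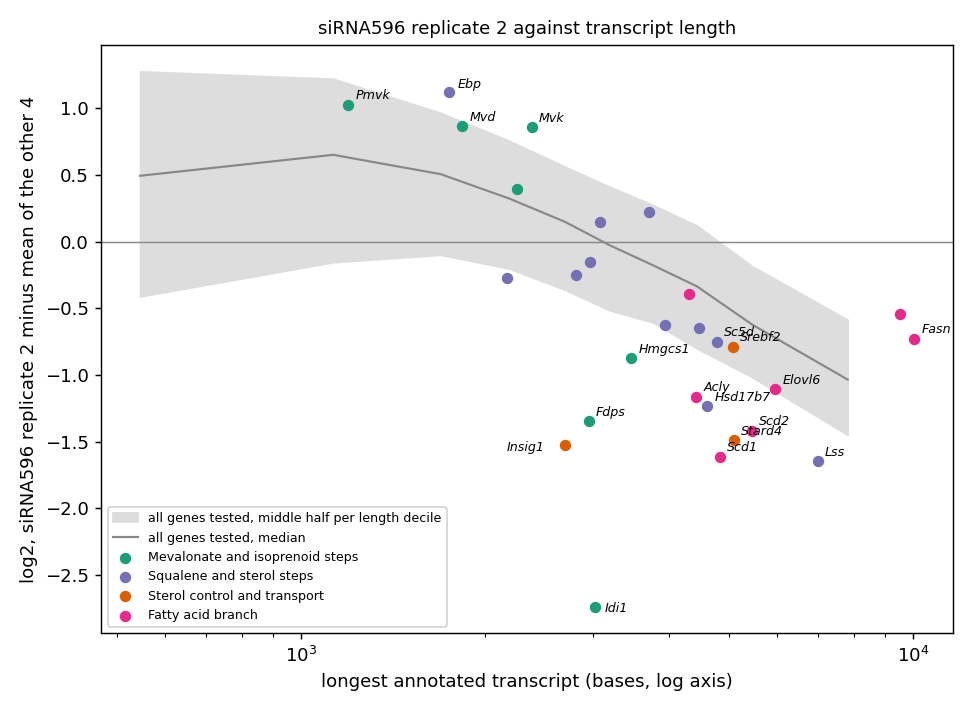
Log2 level in siRNA596 replicate 2 minus the mean of the other 4 libraries (y axis) against the length of the longest annotated transcript in bases on a log axis (x axis), for the 28 genes, with the median (line) and interquartile range (band) over all genes by length decile. The decile medians run from 0.49 for the shortest genes to -1.03 for the longest, Idi1 lies far below them at -2.74, and Ebp and Pmvk lie highest at 1.12 and 1.03.

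A further 63 genes of the same pathways, covering SREBP control, sterol transport and LXR, the isoprenoid side and fatty acid and glycerolipid synthesis, were listed beside the 28. Of these, 62 were matched, and 58 were tested with 4 libraries. None passed an adjusted *P* of 0.05 in edgeR, and 3 of the 58 passed an unadjusted *P* of 0.05, where 3.3% of all genes tested did. Acacb, the mitochondrial acetyl-CoA carboxylase, had a log2 fold change of 0.43 (SE 0.16, unadjusted *P* = 0.0226), and Hacd1, a dehydratase of fatty acid elongation, one of 0.35 (SE 0.15, unadjusted *P* = 0.0447). Acsl5, a long-chain acyl-CoA synthetase, had a log2 fold change of -0.2 (SE 0.089, unadjusted *P* = 0.049), and the adjusted *P* of all 3 was 0.967. Of the 58 genes, 33 had estimates above 0 and 25 below, with a median of 0.021. With 5 libraries 59 were tested and 0 passed an unadjusted *P* of 0.05. NC replicate 2 was the highest library for 24 of the 58, against 32.6% of all genes tested. Their median log2 level there minus the other 3 was 0.0098, where the 28 synthesis genes had 0.31. The lists differed in this. It was highest for 5 of 9 SREBP control genes (median 0.103) and 15 of 28 tested fatty acid and glycerolipid genes (0.0743). For the isoprenoid side it was highest for 3 of 8 (-0.0088), and for sterol transport, storage and LXR for 1 of 13 (-0.0981).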

How the data were processed

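Gene counts of 5 libraries of poly(A) RNA from HT22 cells were used. The deposited counts are unnormalized read numbers for each gene that the authors obtained with Trimmomatic, HISAT2 2.1.0 on GRCm38, SAMtools 1.7 and featureCounts 2.0.1 on the Ensembl annotation. The strand setting is not given in the sources used here. The signal column of mean expression in the authors' deposited comparison is a mean of counts divided by DESeq2 size factors (DESeq2 1.26.0). It served only to find which libraries that comparison used. Mean counts recomputed without siRNA596 replicate 2 differed from it by at most 4.889e-08%, and by up to 348.9% with all 5 libraries. Its columns of log2 fold changes, standard errors, Wald statistics and *P*-values were not used. Columns of other samples numbered 0.

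Counts were normalized with TMM, filtered with filterByExpr and tested with glmQLFit and glmQLFTest of edgeR 4.0.16 in R 4.3.3, KD against NC, with adjustment over all genes tested by the Benjamini-Hochberg method. The CPM values share 1 TMM scaling over the 5 libraries, and log2 levels use CPM + 0.5. TPM used the union of exons. Length and GC content were those of the longest transcript of the GENCODE annotation of GRCm38, fitted with natural splines of 5 degrees of freedom. Depth of 30660265 to 36492134 counts left at least 85 counts for each of the 28 genes in every library. Both edgeR designs were also tested on simulated counts in which 200 well counted genes changed by at least 2-fold. The 4-library design recovered 99% with 8 false calls over 15759 genes, and the 5-library design 100% with 9 over 15989. All simulated libraries shared the same base profile and a fixed spread, and none was outlying. These shares therefore check the procedure and do not tell how well smaller changes would be found in these data.

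The genes, lists, tests and left-out library were chosen with earlier results of these data known. Values in every library are given for Srebf1, Srebf2, Insig1, Hmgcs1, Sqle, Fasn, Scd1 and Scd2 and for the 3 genes of each branch with the largest absolute log2 fold change, Ebp and Acly being added after their values were seen. Genes of the other pathway lists are named where their unadjusted *P* in edgeR was under 0.05, and Vldlr, Insig2, Abca1 and Mylip were added after their values were seen. Alternatives were all 5 libraries, each library left out, siRNA596 alone (no block or replicate block), length and GC offsets, robust fitting, other filters (none, or 10 counts in every library), no scaling beyond library size, and DESeq2 1.42.0 as test or for size factors. The fit without siRNA596 replicate 1 sets the single siRNA210 library against NC and takes its spread from NC. No protein sequence was used. Figures were drawn with matplotlib 3.10.9.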

Additional observations from a re-analysis of the deposited data

Results flagged for a closer look

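The comparison of KD with NC did not use siRNA596 replicate 2, in which 6 of the 28 genes stood above both NC libraries. The share of all genes above both NC libraries there was not taken. Above the mean of the other 4 libraries lay 7446 of the 15867 genes tested and 7 of the 28. The log2 ratio to the higher NC library was 0.16 for Acat2, 0.62 for Mvk, 0.88 for Pmvk, 0.62 for Mvd, 0.23 for Fdft1 and 1.19 for Ebp. These ratios are on the CPM scale with TMM, and on the TPM scale Pmvk and Ebp alone remained above both NC libraries. Acat2, Mvk, Pmvk and Mvd act before the isoprenoid units, and Fdft1 and Ebp in the sterol part. In the same library genes with short transcripts were higher as a whole, as described with the plot against transcript length. The log2 difference from the mean of the other 4 libraries was also taken with the part fitted by length and GC content removed. It was then 0.78 for Ebp, 0.45 for Mvk, 0.39 for Pmvk, 0.31 for Fdft1, 0.30 for Mvd and 0.20 for Acat2. Fdft1 alone of the 6 rose by this, from 0.23.

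For 2 genes of sterol control the siRNA210 library lay above the mean log2 level of NC while both siRNA596 libraries lay below it. The log2 ratio to NC with siRNA210 minus the mean ratio with siRNA596 was 0.78 for Insig1 and 0.48 for Srebf2. The difference was not tested, and it rests on siRNA596 replicate 2. Against siRNA596 replicate 1 alone it was 0.025 for Insig1 and 0.11 for Srebf2.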

How the results depend on the processing

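With DESeq2 as the test, DESeq2's size factors, a minimum of 10 counts in every library and robust fitting, all 28 genes kept the direction of their log2 fold change and stayed short of an unadjusted *P* of 0.05. Without a filter edgeR gave 1 of 28 genes past it, Acat2, and the direction of all 28 was kept. With library size only, Srebf2 turned to -0.0097. Over all genes, 523 had an unadjusted *P* under 0.05 with 4 libraries, 60 with 5, 368 with DESeq2 and 924 without a filter. The study's criteria called 139, 57, 67 and 282 in the same order, and 73 with a minimum of 10 counts. These counts, by the unadjusted *P* and then by the study's criteria, were 2776 and 374 without NC replicate 1, 170 and 125 without siRNA210, 41 and 41 with siRNA596 alone, 428 and 426 with the replicate block, and 61 and 49 with length and GC offsets. An adjusted *P* under 0.05 was reached by 1 gene with DESeq2 and by 1 without siRNA210, neither among the 28.

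With all 5 libraries the median log2 fold change became -0.37 for control and transport and -0.28 for the fatty acid branch. Single genes that turned were Mvk (0.25), Pmvk (0.32), Mvd (0.28), Srebf2 (-0.21), Srebf1 (-0.027), Scd1 (-0.32) and Scd2 (-0.23). With length and GC offsets in that fit, the control and transport median was -0.22, and Mvk (0.0498), Pmvk (0.0295), Mvd (0.016), Srebf2 (-0.21), Srebf1 (-0.064), Acaca (0.11), Scd1 (-0.21) and Scd2 (-0.12) turned.

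With siRNA596 alone and no replicate block, the medians were 0.054 for the mevalonate branch, -0.31 for squalene and sterol, -0.57 for control and transport and -0.49 for fatty acids, and Acat2 (0.054), Mvk (0.40), Pmvk (0.48), Mvd (0.44), Srebf2 (-0.37), Srebf1 (-0.13), Scd1 (-0.55) and Scd2 (-0.49) turned. With the replicate block, the medians were -0.30 for squalene and sterol, -0.76 for control and transport and -0.63 for fatty acids, and Acat2 (0.035), Mvk (0.33), Pmvk (0.36), Mvd (0.39), Srebf2 (-0.41), Srebf1 (-0.14), Scd1 (-0.77) and Scd2 (-0.65) turned. Under the block 1 gene, Idi1 (-1.46, unadjusted *P* = 0.00994), passed an unadjusted *P* of 0.05 and the study's criteria, so 1 of 28 by each, against 428 of 15827 genes, where 41 passed without the block. The replicate numbers do not pair the samples by any label, and the differences between numbers correlated at 0.09 across 15827 genes in siRNA596 and NC. The cause of these turns was not tested, but all of these fits take in siRNA596 replicate 2.

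Leaving out 1 library at a time moved the count of genes with an unadjusted *P* under 0.05 from 0 to 20. The medians ran from -0.32 to 0.064 for the mevalonate branch, -0.34 to 0.042 for squalene and sterol, -0.14 to 0.064 for control and transport and -0.17 to 0.13 for fatty acids. The log2 fold changes that turned ran from -0.30 to 0.064 for Mvk, -0.29 to 0.15 for Mvd, -0.32 to 0.18 for Idi1, -0.64 to 0.13 for Fdps, -0.052 to 0.12 for Fdft1, -0.34 to 0.077 for Sqle, -0.44 to 0.042 for Lss, -0.22 to 0.081 for Cyp51, -0.45 to 0.077 for Tm7sf2, -0.36 to 0.019 for Hsd17b7, -0.40 to 0.17 for Dhcr7, -0.17 to 0.16 for Insig1, -0.049 to 0.062 for Srebf2, -0.14 to 0.064 for Stard4, -0.17 to 0.069 for Acly, -0.34 to 0.11 for Acaca, -0.25 to 0.15 for Fasn, -0.34 to 0.073 for Elovl6 and -0.022 to 0.13 for Scd1. Of the 28, 16 turned without NC replicate 2, 2 without NC replicate 1, 2 without siRNA210 and 0 without siRNA596 replicate 1. Depth limits the values of Fdps most, at 85 counts in siRNA596 replicate 2.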

Other observations

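The genes that bring sterols in, store them or send them out were mostly not at their highest in NC replicate 2. Of 13 tested genes for sterol transport, storage and LXR, 7 were lowest of the 4 libraries in NC replicate 2 and 1 was highest there, with a median log2 difference of -0.098 from the other 3, and over all genes tested 5446 of 15867 were lowest there. Vldlr, a lipoprotein receptor, was at 103 and 75.5 CPM in NC replicates 1 and 2, 117.5 with siRNA210, and 97.7 and 22.0 in siRNA596. Of the 9 genes of SREBP control, 5 were highest in NC replicate 2 and 1 was lowest, with a median log2 difference of 0.103. The one at its lowest was Insig2, the second INSIG, which was at 127 and 89.2 CPM in NC, 130.4 with siRNA210, and 124 and 45.4 in siRNA596, whereas Insig1 had its highest level of the 4 in NC replicate 2. Abca1, the sterol exporter that LXR induces, was at 19.6 and 15.7 CPM in NC, 17.8 with siRNA210, and 20.3 and 2.8 in siRNA596. Mylip, of the same list as Abca1, went the other way between the NC libraries, at 16.0 and 19.5 CPM. It was at 20.2 CPM with siRNA210, and at 16.8 and 7.42 in siRNA596. These genes were chosen after their values were seen, and no test of the difference between the lists was made.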
